A study of Mus musculus with 23 samples.

Results

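The genes described here were the mouse MHC class II genes and their transcriptional coactivator Ciita, 10 genes in all, namely Ciita, Cd74, H2-Aa, H2-Ab1, H2-Eb1, H2-DMa, H2-DMb1, H2-DMb2, H2-Oa and H2-Ob. They were chosen by name, and every array probe whose RefSeq accession belongs to them was used. Probes were found for 9 of the 10 genes, and no probe on the array carried an accession of H2-Eb1, so H2-Eb1 has no value here. The 9 measured genes were part of 13743 genes tested, out of 18217 genes with a probe. They were read by 13 probes, and all 9 were well above background in every one of the 22 samples by the scanner's own test.

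The arrays were one-colour Agilent whole-mouse-genome arrays, and the samples of most interest were 9 B cell lymphoma lines of ATMKO.CD3eKO mice, which were started from spleens with tumours and cultured in suspension. They were set against 6 tumour-free spleens of ATMKO.CD3eKO mice, called Atm knockout spleens below, and 7 spleens of ATMWT.CD3eKO mice, called Atm wild-type spleens. Atm is the kinase that responds to broken DNA, and Cd3e is part of the T cell receptor, so that all groups came from mice without a normal T cell compartment. The strain was C57BL/6 x 129, the knockout spleens were all from females, those of the wild type from 4 males and 3 females, and the sources used here give no ages and no sex for the lines. The H2 haplotypes of the animals were not typed here, so whether an allele difference lies under a probe was not tested.

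MHC class II molecules are pairs of an alpha and a beta chain that show peptides from the endocytic pathway to helper T cells, and B cells, dendritic cells and macrophages carry them. In mice the classical pairs are I-A, made by H2-Aa and H2-Ab1, and I-E, whose beta chain is made by H2-Eb1. The invariant chain Cd74 fills the groove of new pairs, H2-DM helps to exchange its last fragment for peptide, and H2-O, which is mainly a protein of B cells, restrains H2-DM. Ciita does not bind DNA itself. It docks on a complex of RFX, CREB and NF-Y that sits on conserved X and Y boxes just upstream of these genes.

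The promoter sequences that such a complex could meet are shown first because Ciita acts at promoters of this kind. RefSeq promoter entries of these genes on chromosome 17 (build GRCm38.p6, 250 bases before to 50 bases after each gene's start) were used. They covered 7 of the 10 genes. A core of the Y box, GATTGG, began 30 to 100 bases before the start on the gene's own strand in 6 of these 7 genes, against 3.81% of 32851 promoters of all genes, and the exception was H2-DMa, for which neither of its promoters had it there. A core of the X1 box, spelled as AG, 2 free bases, AC, 1 free base and GATG, stood 25 to 40 bases before that Y core in 2 of the genes, H2-Eb1 and H2-DMb1, and in only 3 of the 32851 promoters (0.00913%), the third being that of H2-Eb2. Searched on both strands and anywhere in the window, the X1 core was in 0.968% and the Y core in 16.1% of all promoters. The 2 motifs share no letters within a promoter at this spacing. Each stretch below has 56 bases of the gene's strand from 5′ to 3′, with Y cores, and X1 cores at this spacing, in capitals.
H2-Aa, chr17:34287862-34287917, minus strand: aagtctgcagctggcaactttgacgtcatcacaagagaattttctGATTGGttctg
H2-Eb1, chr17:34305762-34305817, plus strand: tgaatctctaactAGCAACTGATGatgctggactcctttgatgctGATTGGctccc
H2-DMb1, chr17:34153084-34153139, plus strand: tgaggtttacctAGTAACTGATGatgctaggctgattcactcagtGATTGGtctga
H2-DMb2, chr17:34145113-34145168, plus strand: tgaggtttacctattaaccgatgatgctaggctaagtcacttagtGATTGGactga
H2-Oa, chr17:34092290-34092345, plus strand: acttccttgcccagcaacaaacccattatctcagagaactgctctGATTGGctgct
H2-Ob, chr17:34238802-34238857, plus strand: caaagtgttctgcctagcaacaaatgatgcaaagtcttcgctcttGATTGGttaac

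H2-DMb1 and H2-DMb2, paralogs that encode beta chains of H2-DM, were identical at 50 of these 56 positions. Upstream of the Y core, H2-DMb2 and H2-Ob each matched at best 7 of the 8 fixed letters of the X1 core, H2-Oa 5 and H2-Aa 4. These matches are a description of letters, and a missing match says only that these letters are not in that window.

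Before the levels are given, the quality of the arrays that carry them is stated. The lymphoma line numbered 8 was measured on 2 arrays, the title of 1 of which marks it as a repeat, and the 2 were averaged to 1 value. The design text counts 10 lines. Over 27701 probes the correlation between these 2 arrays was 0.965, whereas pairs of different lines ranged from 0.943 to 0.986 (median 0.959), and 11 of 44 such pairs were more alike than the 2 arrays of line 8. Pairs of Atm knockout spleens ranged from 0.980 to 0.993. On the array titled repeat, H2-DMb2 was lower by 2.87 log2 units than on the other array of that line and H2-Ab1 was lower by 1.24, while H2-Oa was higher by 1.06. Results are therefore also given for each of these arrays without the other. Each array was scaled to the 75th percentile of its signal, which lay between 491.9 and 897.7 over the arrays, and all levels below are log2 values relative to it. The Atm probe averaged -3.34 ± 0.54 (SD, n = 9) in the lines, -2.39 ± 0.22 in knockout (SD, n = 6) and -0.19 ± 0.23 in wild-type spleens (SD, n = 7), with no overlap between groups. The Cd3e probe was well above background throughout, at -2.34 ± 0.65 (SD, n = 9) in the lines, -4.21 ± 0.30 in knockout (SD, n = 6) and -4.21 ± 0.24 in wild-type spleens (SD, n = 7), and was higher in the lines than in knockout spleens by 1.87 (limma adjusted p = 5.01e-07). All lines were above all spleens, and which part of either gene was deleted is not given in the sources used here.

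The first comparison, of lymphoma lines with tumour-free spleens of the same Atm genotype, asks how class II levels in cultured tumour cells compare with those in whole spleen. The lines were cultured and the spleens were not, so culture and tumour state cannot be told apart here. Ciita was lower in the lines, and with it both chains of I-A, all 3 H2-DM genes and both H2-O genes. The largest decrease was in H2-Oa, at 10.9-fold lower in the lines, and the smallest difference was in Cd74. Of the 9 measured genes, 8 fell (limma, Benjamini-Hochberg adjusted p under 0.05) and 0 rose, whereas 28.9% of all genes tested fell and 41.5% rose (18.9% and 61.6% with median centring). The median difference over the 9 genes was -1.37 on the log2 scale, against 0.18 over all genes tested. In whole spleen, fewer cells of a type and less RNA per cell cannot be told apart, and a spleen holds class II-bearing cells other than B cells.

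Ciita, the coactivator without which the class II promoters stay silent in most cell types, had a log2 level of 2.03 at the lowest, 3.48 at the median and 4.29 at the highest in the lines. In knockout spleens the values were 4.39, 5.05 and 5.29, and in wild-type spleens 4.82, 5.44 and 5.78. The highest line stayed below the lowest spleen, although only narrowly for the knockout spleens. The mean was 3.25 ± 0.81 (SD, n = 9) in lymphoma lines and 4.98 ± 0.33 (SD, n = 6) in knockout spleens, a log2 difference of -1.74 ± 0.29 (SE, limma adjusted p = 2.01e-05), or 3.33-fold lower. The transcript was nevertheless well above background in all 9 lines.

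**Figure D1:**
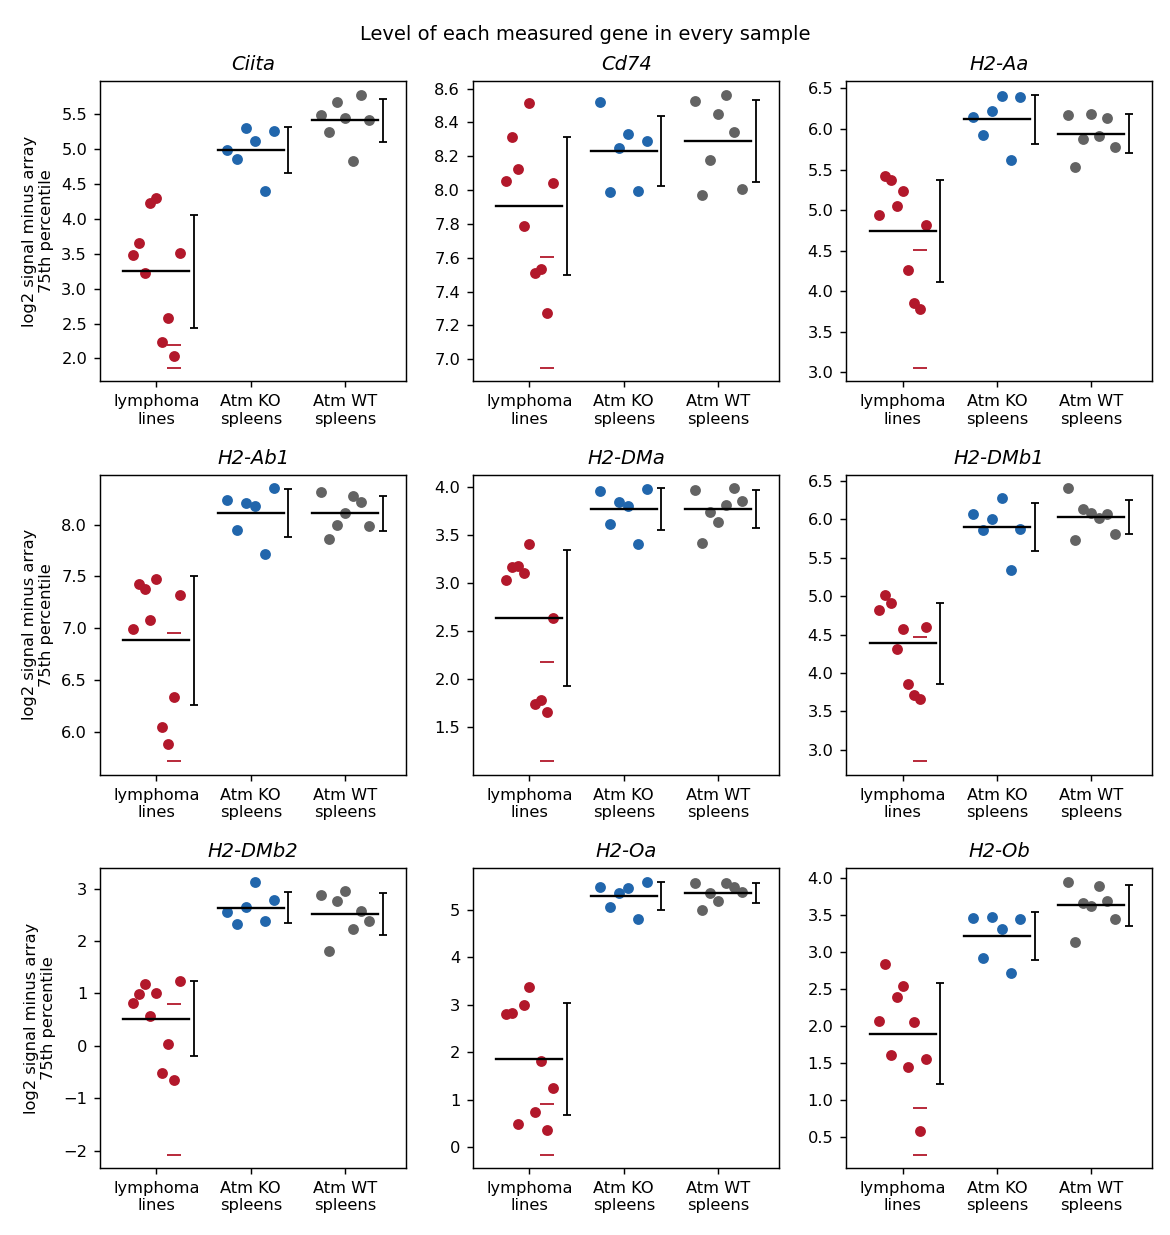
Log2 level of each measured gene (vertical axis, signal relative to the 75th percentile of its array) in lymphoma lines (red), Atm knockout (KO) spleens (blue) and Atm wild-type (WT) spleens (grey). Points are samples, horizontal bars are group means, vertical bars are ± 1 SD, and the red dashes are the 2 arrays behind the point of line 8. For H2-Oa the lines lie at 3.37 or lower and all spleens at 4.80 or higher, while for Cd74 the groups overlap.

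The classical I-A chains were both lower in the lines. H2-Aa, the alpha chain, had 3.78, 4.94 and 5.42 (lowest, median and highest) in the lines, against 5.61, 6.18 and 6.41 in knockout spleens, and H2-Ab1, the beta chain, had 5.88, 7.08 and 7.47 in the lines against 7.72, 8.20 and 8.35 in knockout spleens. No line reached the lowest spleen for either chain. The log2 differences were -1.37 ± 0.23 (SE, limma adjusted p = 2.18e-05) for H2-Aa and -1.23 ± 0.22 (SE, limma adjusted p = 4.40e-05) for H2-Ab1. The other H2-Aa probe gave -1.39 and the other H2-Ab1 probes -1.45 and -1.51.

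The invariant chain differed less. Cd74, which is the chaperone of class II pairs and also a cell surface receptor, had 7.28, 8.04 and 8.51 in the lines, against 7.99, 8.27 and 8.52 in knockout spleens. The groups overlapped, with lines 4, 6, 7 and 8 below every spleen and the other lines within the spleen range. The difference of -0.32 ± 0.17 (SE) did not pass (limma adjusted p = 0.0866). It passed with quantile normalisation (-0.66, adjusted p = 0.000137) and on scaling to 6 B cell genes (-0.32, adjusted p = 0.0322). It also passed without line 2 (-0.38, adjusted p = 0.0487) and without line 5 (-0.40, adjusted p = 0.0271), and it had the opposite sign without passing under median centring (0.27).

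Of the peptide exchange genes, H2-DMa, the alpha chain of H2-DM, had 1.66, 3.04 and 3.41 in the lines against 3.41, 3.82 and 3.98 in knockout spleens, and line 5 and the lowest spleen met at 3.41. Its log2 difference was -1.14 ± 0.25 (SE, limma adjusted p = 0.000343), and this did not pass under median centring (-0.54, adjusted p = 0.0599). H2-DMb1 had 3.66, 4.57 and 5.02 in the lines against 5.34, 5.94 and 6.28 in knockout spleens. H2-DMb2 had -0.64, 0.82 and 1.24 in the lines against 2.33, 2.60 and 3.13 in knockout spleens, so that for both beta chain genes all lines lay below all spleens. The log2 differences were -1.52 ± 0.21 (SE, limma adjusted p = 9.98e-07) for H2-DMb1 and -2.12 ± 0.28 (SE, limma adjusted p = 5.79e-07) for H2-DMb2. The other H2-DMb1 probe gave -1.98, and since these paralogs are so alike, signal of one on the other's probes could not be separated.

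H2-Oa, the alpha chain of the H2-DM inhibitor H2-O, showed the widest gap. Its levels were 0.37, 1.803 and 3.37 in the lines, 4.80, 5.41 and 5.59 in knockout spleens and 4.98, 5.38 and 5.57 in wild-type spleens. The means were 1.85 ± 1.18 (SD, n = 9) in lymphoma lines and 5.29 ± 0.30 (SD, n = 6) in knockout spleens, a log2 difference of -3.44 ± 0.40 (SE, limma adjusted p = 1.04e-07). The lines ran over 3.00 log2 units among themselves, yet each was below every spleen. H2-Ob, the beta chain, had 0.57, 2.05 and 2.85 in the lines against 2.72, 3.38 and 3.47 in knockout spleens, and only line 2 entered the spleen range. Its log2 difference was -1.33 ± 0.26 (SE, limma adjusted p = 8.76e-05).

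All lines lay below all knockout spleens for 6 of the 9 genes, the exceptions being Cd74, H2-DMa and H2-Ob, and 16.8% of all genes tested showed that pattern. With either array of line 8 left out, 8 of the 9 genes still fell. Within each of the 5 slides that held both groups, every gene but Cd74 was lower in the lines, and Cd74 was lower within 4 of 5. Each of these slides held 1 or 2 lines and 1 or 2 knockout spleens, so no slide gives a test on its own. With slide as a term in the fit, the log2 difference was -1.55 for Ciita, -3.19 for H2-Oa and -0.89 for H2-DMa, and again 8 of 9 genes fell. Within slides the log2 difference of Ciita ran between -2.16 and -1.01, that of H2-Oa between -4.96 and -2.39 and that of H2-Ob between -1.72 and -0.35.

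**Figure D2:**
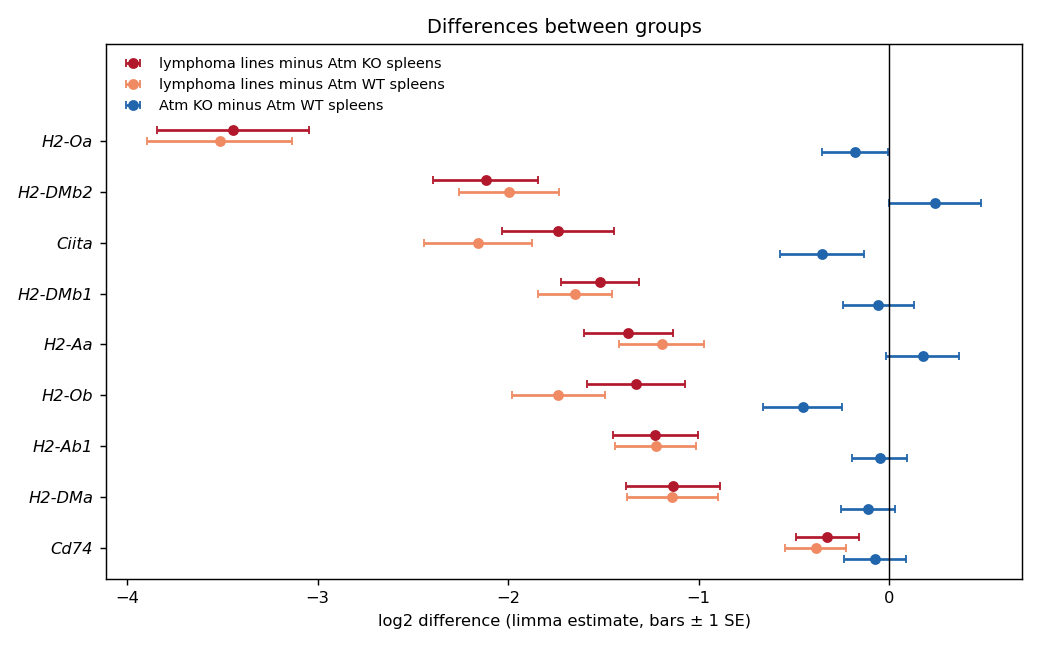
Log2 differences (horizontal axis, limma estimates with bars of ± 1 SE) of the 9 measured genes for lymphoma lines minus Atm knockout (KO) spleens, lymphoma lines minus Atm wild-type (WT) spleens, and knockout minus wild-type spleens. The differences of the lines run from -3.44 for H2-Oa to -0.32 for Cd74 against knockout spleens, and those between the spleen genotypes lie between -0.46 and 0.24.

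The comparison with Atm wild-type spleens uses the same lines, so the values are given side by side with the ones above and are no independent repeat. All 9 genes fell in the lines (limma adjusted p under 0.05) and 0 rose, while 31% of all genes tested fell and 40.2% rose (19.9% and 60.4% with median centring). Ciita differed by -2.16 ± 0.28, H2-Oa by -3.51 ± 0.38 and H2-DMb1 by -1.65 ± 0.20 on the log2 scale (SE). Cd74 differed by -0.39 ± 0.16 (SE, limma adjusted p = 0.0343). Cd74 lost its call in 7 alternatives, among them those without line 4, 6, 7 or 8 (adjusted p = 0.0515, 0.0653, 0.0638 and 0.0694), and had the opposite sign under median centring (0.20, adjusted p = 0.317). All lines lay below all wild-type spleens for 8 of the 9 genes, Cd74 being the exception, and 18% of all genes tested showed that pattern.

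The comparison of tumour-free knockout spleens with wild-type spleens asks whether loss of Atm by itself went with another class II level. In a fit with genotype and sex, 0 of the 9 genes fell and 0 rose (limma adjusted p under 0.05), against 2.17% and 1.65% of all genes tested. The largest differences were in H2-Ob, with means of 3.23 ± 0.32 (SD, n = 6) in knockout and 3.63 ± 0.27 (SD, n = 7) in wild-type spleens and a log2 difference of -0.46 ± 0.21 (SE, limma adjusted p = 0.239), and in Ciita, at -0.35 ± 0.22 (SE, limma adjusted p = 0.39). The groups overlapped for all 9 genes. H2-Ab1 differed least, at 8.11 ± 0.23 (SD, n = 6) in knockout and 8.11 ± 0.17 (SD, n = 7) in wild-type spleens. The standard errors of the 9 differences lay between 0.14 and 0.24, and the sign of those of Cd74, H2-Ab1, H2-DMa, H2-DMb1 and H2-Oa changed with B cell scaling, with normexp and with slide as a term, in each case without passing.

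Whether the genes of a pair fell by the same amount was tested on the difference between the 2 log2 levels within each sample, with an exact two-sided permutation test over the 5005 ways to divide the 15 samples and adjustment over the 6 pairs compared. H2-Oa minus H2-Ob averaged -0.05 ± 0.66 (SD, n = 9) in the lymphoma lines and 2.07 ± 0.10 (SD, n = 6) in knockout spleens. The 2 groups did not overlap (exact permutation adjusted p = 0.000599, with a raw p of 2e-04, the smallest this design allows), so that H2-Oa fell by more than its partner. Cd74 minus H2-Ab1 averaged 1.02 ± 0.33 (SD, n = 9) in lymphoma lines and 0.12 ± 0.14 (SD, n = 6) in knockout spleens, again without overlap (exact permutation adjusted p = 0.000599). For the I-A chains the difference did not pass, with H2-Aa minus H2-Ab1 at -2.13 ± 0.25 (SD, n = 9) in lymphoma lines and -1.99 ± 0.12 (SD, n = 6) in knockout spleens (exact permutation p = 0.224), and the sign of their difference changed when all probes of a gene were averaged (0.02).

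Of the other pairs, H2-DMb2 fell by more than H2-DMb1, with a difference between the groups of -0.60 on the log2 scale (exact permutation adjusted p = 0.00639). The size of this gap depended on the H2-DMb1 probe. The gap was -0.37, and still passed, when all probes of a gene were averaged. The other H2-DMb1 probe alone differed by -1.98 between lines and knockout spleens, close to the -2.12 of H2-DMb2. The pair was not tested with that probe alone. H2-DMa fell by less than H2-DMb1 (0.38, exact permutation adjusted p = 0.03), and Ciita by more than H2-Ab1 (-0.51, exact permutation adjusted p = 0.03). These last 2 calls were each lost in some alternatives. Without knockout spleen 2, 3 or 4 both were lost, and H2-DMa against H2-DMb1 was also lost without knockout spleen 1 (adjusted p = 0.0515) and without the repeat array of line 8 (adjusted p = 0.0762). Ciita against H2-Ab1 was also lost when all probes of a gene were averaged (-0.34, adjusted p = 0.108).

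The 9 lines did not share 1 level of these genes. Lines 6 and 8 were among the lowest 3 for all 9 genes and line 7 for 7 of them, line 8 was the lowest for 8, and line 5 was the highest for 5. Relative to the mean of the knockout spleens, the median over the 9 genes was -2.34 in line 8, -2.22 in line 7 and -2.06 in line 6, against -0.70 in line 2 and -0.69 in line 5. Lines 7, 8 and 9 shared a slide with no spleen on it, and line 6 was on another slide, with spleens. Line 9, on the slide of lines 7 and 8, had a median of -1.31. The part of the slide in the low values of lines 7 and 8 was not tested. The SD over lines was 0.41 for Cd74 to 1.18 for H2-Oa, against a median of 0.44 for all genes tested, and 46.6% and 89.1% of genes had a lower SD than these 2.

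**Figure D3:**
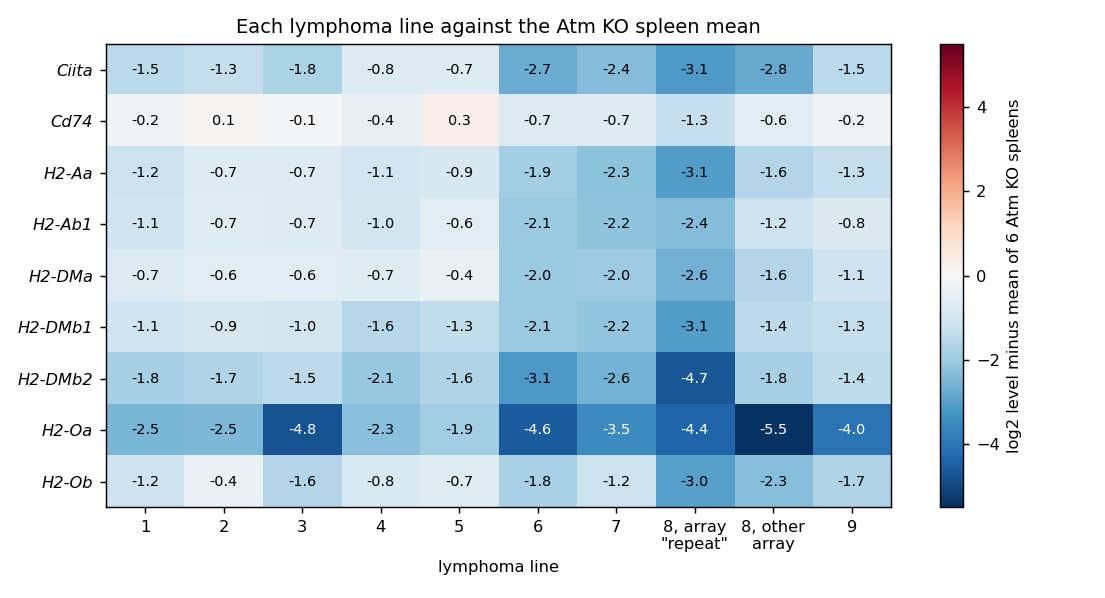
Log2 level of each measured gene in each lymphoma line minus the mean of the 6 Atm knockout (KO) spleens, as colour and number, with the 2 arrays of line 8 in separate columns. Lines 6 and 7 and the repeat array of line 8 are low across most rows, and the other array of line 8 is nearer to the remaining lines for H2-DMb2 but not for H2-Oa.

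The low state of line 8 rested in part on the array titled repeat. On that array H2-Aa was 3.06, H2-Ab1 5.71 and H2-DMb2 -2.08, below the lowest of the other lines, whereas the other array of the line read 4.51, 6.96 and 0.79, within the range of the other lines. Ciita was low on both, at 1.87 and 2.20, and H2-DMa read 1.14 and 2.17. The order of the lines for the H2-O genes was unlike that for I-A. For H2-Oa, lines 3 and 9, which were not low in I-A, read 0.49 and 1.25, beside 0.73 in line 6 and 0.37 in line 8. For H2-Ob, lines 3 and 9 read 1.60 and 1.55, beside 1.44 in line 6 and 0.57 in line 8. H2-Oa on the 2 arrays of line 8 was 0.90 and -0.16.

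Across lines the other genes were set against Ciita. Lines 6, 7 and 8 were the 3 lowest in Ciita, at 2.23, 2.58 and 2.03, and they were below all other 6 lines for 6 of the 8 other genes, all but H2-Oa and H2-Ob. The share of all genes tested with this pattern was not counted, so whether 6 of 8 is unusual cannot be told. Over all 9 lines Pearson's r with Ciita was 0.70 for H2-DMb1 to 0.92 for H2-DMa, and 8 of 8 genes passed (exact permutation adjusted p = 0.0116 to 0.0393 over 8 relations), where 8.18% of other genes had an r at or above the lowest of these. By Spearman's rho 6 of 8 passed, with rho of 0.52 for H2-DMb1 (exact permutation adjusted p = 0.162) to 0.88 for H2-Oa (exact permutation adjusted p = 0.0246). Without the 2 lines farthest from the median Ciita level r was between 0.37 and 0.80, and without the array titled repeat 5 of 8 genes passed by r. The step between lines 6, 7 and 8 and the next line was 0.65 log2 units for Ciita, and for the 6 genes below all other lines it was 0.26 for Cd74 to 0.85 for H2-DMa. Among the remaining 6 lines, 0 of 8 genes passed (exact permutation tests over 6 lines, adjusted over 8 relations, split chosen after the values were seen). Tests over 6 lines have little power, so this count cannot decide how far the calls over all lines rest on those 3 lines. Pearson's r over these 6 lines was 0.78 for H2-Oa (exact permutation p = 0.0736, adjusted p = 0.444, Spearman's rho 0.94 with exact p = 0.0167, adjusted p = 0.133), 0.02 for H2-Ab1 and -0.72 for H2-DMb1 (exact permutation p = 0.128). Line 3 had a low H2-Oa and the lowest Ciita of these 6, and lines 4 and 5 the highest of both.

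**Figure D4:**
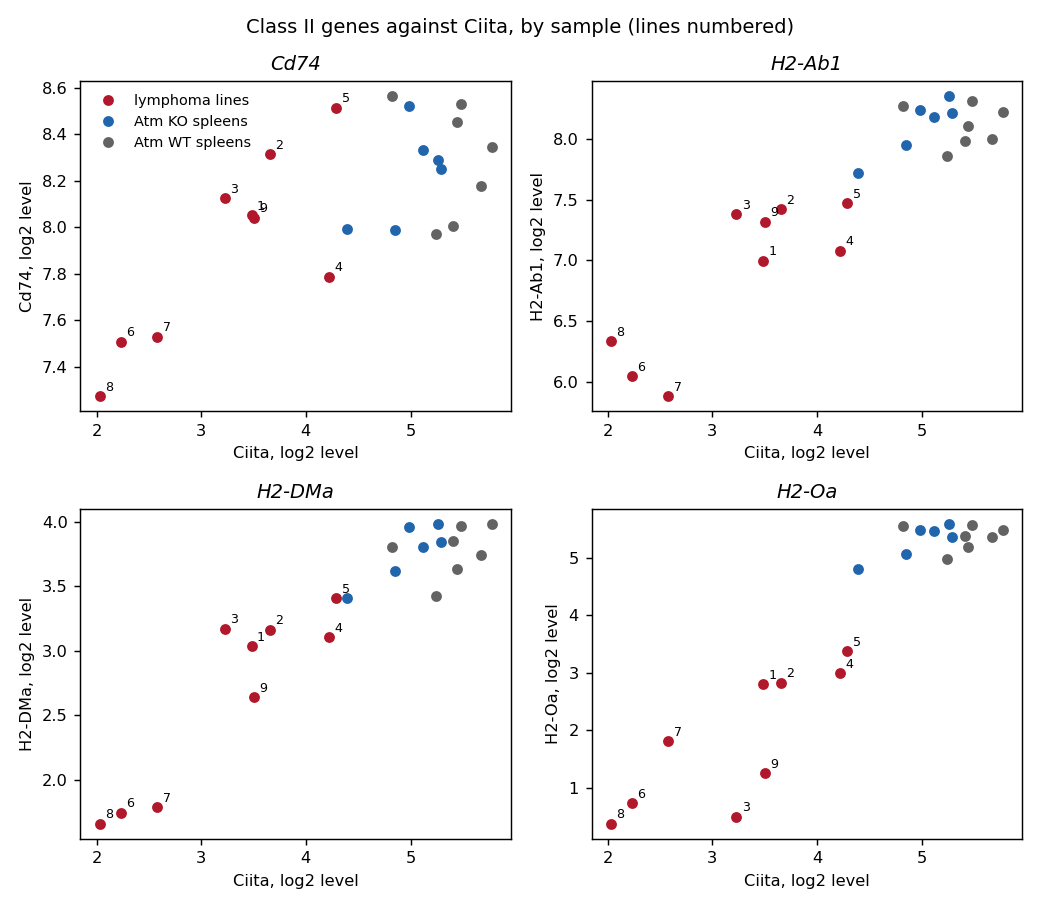
Log2 level of Cd74, H2-Ab1, H2-DMa and H2-Oa (vertical axes) against that of Ciita (horizontal axes) in lymphoma lines (red, numbered), Atm knockout (KO) spleens (blue) and Atm wild-type (WT) spleens (grey). Lines 6, 7 and 8 sit at the lower left of each panel except that of H2-Oa, where line 7 is above lines 3 and 9, and over the remaining 6 lines Pearson's r is 0.78 for H2-Oa and 0.02 for H2-Ab1, neither past the threshold.

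Among the 6 knockout spleens Pearson's r with Ciita was 0.93 for both I-A chains (adjusted p = 0.037, exact permutation over 8 relations), 0.90 for H2-Ob, 0.89 for H2-Oa and 0.87 for H2-DMa, and lower for Cd74 (0.60) and both H2-DMb genes. Of the 8 genes 5 passed by Pearson's r, where 5.39% of other genes had an r at or above the lowest of these 5, and 0 by Spearman's rho (rho of 0.37 to 0.83, smallest adjusted p = 0.218, exact permutation). Knockout spleen 5 had the lowest level of Ciita and of 6 of the 8 other genes, and without the 2 spleens farthest from the median Ciita level r was 0.93 for H2-Aa and 0.87 for H2-Ab1 over the 4 left, and 0.14 for H2-DMb1. Among the 7 wild-type spleens r was between -0.21 and 0.55 and 0 of 8 passed (exact permutation, smallest raw p = 0.206).

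The measured genes that are not in the mean of H2-Aa, H2-Ab1 and Cd74 were set against that mean over the 9 lines. Pearson's r was 0.964 for H2-DMa, 0.936 for H2-DMb1, 0.910 for H2-DMb2, 0.851 for Ciita, 0.627 for H2-Ob and 0.527 for H2-Oa. Outside the 10 genes, those whose levels over the lines were most like those of Ciita were Dennd3 (Pearson's r = 0.963), Apln (0.963), Olfr615 (0.961, well above background in 3 of 9 lines), Rhox4e (0.956) and Fam167b (0.949). Among genes other than the 10 described here, the levels most like the mean of H2-Aa, H2-Ab1 and Cd74 were those of Atp6v0e (0.958), Zfp933 (0.956), Ndufs7 (0.953), Tma7 (0.941) and Krt16 (0.941). These are descriptions over 9 lines in which 3 stand low, and 65 and 33 of 13721 genes had an r above 0.9 with Ciita and with that mean.

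The transcripts of the proteins that Ciita docks on did not all change in the same direction. Of the 7 genes of the RFX, CREB and NF-Y complex, 3 fell and 3 rose in the lines against knockout spleens (2 and 4 with median centring). Of all genes tested 28.9% fell and 41.5% rose (18.9% and 61.6% with median centring). Nfya, a subunit of NF-Y, was at 0.62 ± 0.37 (SD, n = 9) in lymphoma lines and 2.28 ± 0.48 (SD, n = 6) in knockout spleens, a log2 difference of -1.67 ± 0.18 (SE, limma adjusted p = 5.75e-08). Rfx5, the DNA-binding subunit of RFX, differed by -1.23 and Creb1 by -0.54. The NF-Y subunits Nfyb and Nfyc differed by 1.29 and 0.50, and the RFX subunit Rfxap by 0.39, while Rfxank (0.09) did not pass. Nfya, Nfyb and Rfx5 passed in the same direction under median centring, quantile normalisation, B cell scaling and normexp, whereas the calls of Nfyc, Rfxap and Creb1 did not hold under all of these and Creb1 changed sign under median centring (0.05). Between genotypes Creb1 was lower in knockout spleens (-0.42, limma adjusted p = 0.0263), a call lost with median centring, B cell scaling, normexp, slide as a term, in females alone and without wild-type spleen 5, 6 or 7 (adjusted p = 0.0527 to 0.561).

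Of 22 genes known to act on Ciita or on its induction, 11 fell and 6 rose, with a median of -0.39 against 0.18 for all genes. With median centring 7 fell and 10 rose, with a median of 0.21 against 0.77 for all genes. The shares of all genes tested that fell and rose were 28.9% and 41.5%, and 18.9% and 61.6% with median centring. Irf8, a factor of B cells and dendritic cells that acts on Ciita, fell to 2.16 ± 1.40 (SD, n = 9) in the lines, against 5.82 ± 0.18 (SD, n = 6) in knockout spleens, a log2 difference of -3.66 ± 0.46 (SE, limma adjusted p = 3.78e-07). Myc (-2.70) and Irf1 (-2.02), a mediator of interferon-gamma induction of Ciita, also fell, and so did Ifngr1 (-1.55) and Ifngr2 (-1.51), the chains of the interferon-gamma receptor. Ezh2, a histone methyltransferase reported to silence Ciita, rose by 3.28 ± 0.20 (SE, limma adjusted p = 4.06e-12), Bcl6 by 1.77 and Spib, a B cell ETS factor, by 1.20. Each of Irf8, Myc, Irf1, Ezh2, Bcl6 and Spib kept its call and direction under the 4 other scalings. Prdm1, the plasma cell repressor of Ciita, was at -0.34 ± 1.28 (SD, n = 9) in lymphoma lines and -0.20 ± 0.24 (SD, n = 6) in knockout spleens and did not pass (limma adjusted p = 0.781), but was higher in knockout than wild-type spleens by 0.77 (limma adjusted p = 0.0147). That call was lost with normexp, with slide as a term and without wild-type spleen 6 or 7 (adjusted p = 0.0607 to 0.429).

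Of 13 tested genes of lysosomal processing and class II turnover, 7 fell and 2 rose (5 rose and 4 fell with median centring). In the same fits 28.9% of all genes tested fell and 41.5% rose (18.9% and 61.6% with median centring). Ifi30, the thiol reductase of the endocytic pathway, fell by 1.67 on the log2 scale, the protease Ctsd by 1.36 and Cd83, a membrane protein that stabilises surface class II, by 1.24. Ctss, the cathepsin that trims the invariant chain, differed by -1.08. Ctsz and Ctsh, other cathepsins, rose by 1.41 and 0.51, and Ctsh did not pass with quantile normalisation or normexp. Between genotypes Cd83 was higher in knockout spleens, at 6.02 ± 0.32 (SD, n = 6) against 4.97 ± 0.22 (SD, n = 7) in wild-type spleens, a log2 difference of 1.01 ± 0.19 (SE, limma adjusted p = 0.0145). It did not pass with normexp (1.28, adjusted p = 0.277) or without wild-type spleen 5, 6 or 7 (adjusted p = 0.0538 to 0.0711).

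The class II genes lie in a dense region with genes of the class I pathway and others, of which 14 listed neighbours were tested. Of these 7 rose and 2 fell (12 and 1 with median centring, 3 and 5 with quantile normalisation, 2 and 2 with normexp). Among all genes tested 41.5% rose and 28.9% fell. These shares were 61.6% and 18.9% with median centring, 39.7% and 30.7% with quantile normalisation, and 32.5% and 17.8% with normexp. Psmb9, an immunoproteasome subunit, was 6.37 ± 0.30 (SD, n = 9) in lymphoma lines and 5.47 ± 0.15 (SD, n = 6) in knockout spleens, a log2 difference of 0.90, and it rose under all 5 scalings. Psmb8, its companion subunit, differed by 0.46 with the sign changed with quantile normalisation (-0.04), and Ager by 1.18. Ager did not pass with normexp (0.84, limma adjusted p = 0.0527). H2-K1, a class I heavy chain, differed by 0.08 (limma adjusted p = 0.567), with a sign that depended on the scaling. Notch4 (-3.20, and -1.40 with normexp) and H2-Ke6 (-0.55, 0.05 under median centring) fell. H2-Eb2, a class II-like locus with 2 probes, differed by -0.31 and -0.22, and neither passed.

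**Figure D5:**
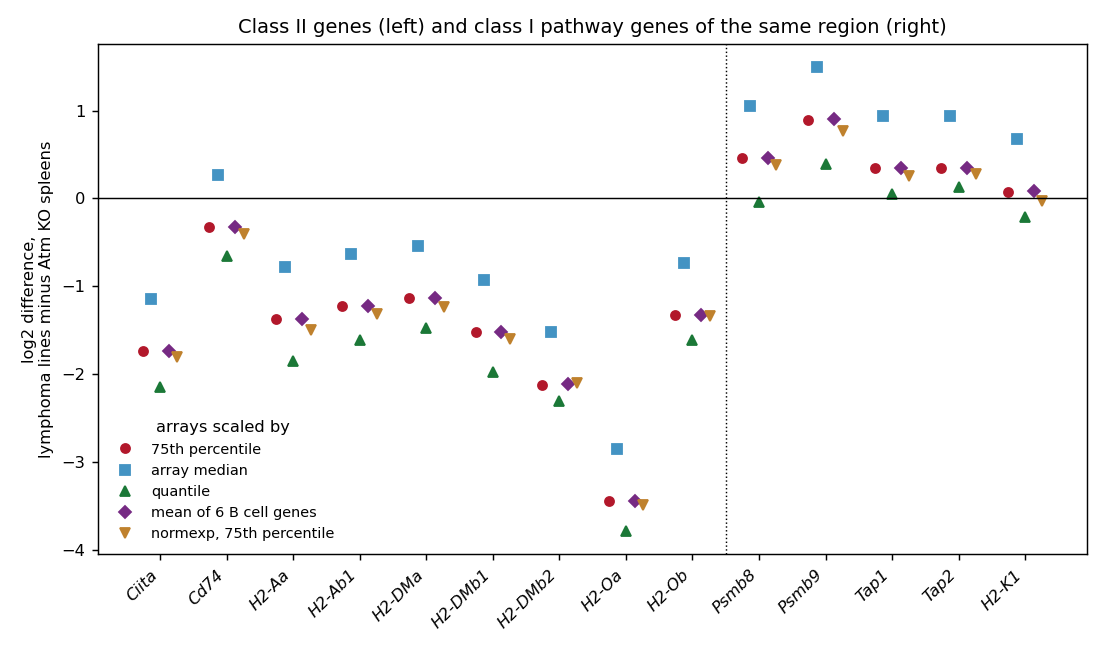
Log2 difference between lymphoma lines and Atm knockout (KO) spleens (vertical axis) of the 9 measured class II genes and 5 class I pathway genes under 5 ways of scaling the arrays, each a symbol. Median centring lies highest and quantile normalisation lowest for each of these genes, and the 8 class II genes other than Cd74 stay below 0 under all 5.

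Markers of other class II-bearing cells differed between the groups in the same comparison. Of 10 tested dendritic cell markers 9 were lower in the lines, and of 15 macrophage and monocyte markers 14 were, where 28.9% of all genes tested fell. The mean level over the 11 dendritic markers with a probe was -5.68 to -4.18 in the lines and -0.61 to -0.24 in knockout spleens, and over 15 macrophage and monocyte markers -5.31 to -3.71 in the lines and 2.05 to 2.88 in knockout spleens. Zbtb46, Cd209a, Clec10a and Dcstamp of the first list and Mertk, Fcgr1, Cd163 and Ccr2 of the second were not well above background in any line. Clec10a averaged 1.05 ± 0.14 (SD, n = 6) in knockout spleens. The part of dendritic cells and macrophages in the class II level of the spleens was not tested. Between the spleen genotypes 0 of 10 and 0 of 15 of these markers passed (limma adjusted p under 0.05).

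B cell markers were measured in the same way. Their mean level over 16 genes was 1.93 to 2.69 in the lines and 3.25 to 3.73 in knockout spleens. This mean includes Cr2 and Fcer2a, which had the largest differences of the list (-7.26 and -10.6), so it does not show a general decrease. Of 16, 5 rose and 6 fell in the lines against knockout spleens (9 and 4 with median centring), with a median difference of -0.12, and 14 of 16 were well above background in every line. For all genes tested the shares that rose and fell were 41.5% and 28.9% (61.6% and 18.9% with median centring). The kinase Blk differed by 0.90, Cd180 by 0.63 and Cd79a by 0.43 (limma adjusted p = 0.0458 for Cd79a). Cd79a did not pass with quantile normalisation (0.21, limma adjusted p = 0.3) or normexp (0.35, limma adjusted p = 0.139). The complement receptor Cr2 was at -3.46 ± 1.499 (SD, n = 9) in lymphoma lines and 3.80 ± 0.18 (SD, n = 6) in knockout spleens, and Fcer2a, the low-affinity IgE receptor, was well above background in 1 of 9 lines and averaged 3.39 ± 0.34 (SD, n = 6) in knockout spleens. On scaling to the mean of 6 genes of this list, all 9 measured class II genes fell, with a median of -1.37, where 27.1% of all genes tested fell.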

How the data were processed

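The genes and lists were chosen with earlier results of these data known. The authors deposited scanner output with the intensity of each spot, made by Agilent Feature Extraction 10.7.1.1 with background subtraction (per the file headers). A deposited series table of log2 values served as an alternative. Its 41174 probes matched the scanner values after each probe was centred on a median of 0. Per array 1639 control spots and, over all arrays, 1556 spots with outlier flags were left out, and 0 spots were saturated. Processed signals of the same probe were averaged, divided by the array's 75th percentile and taken to log2. RefSeq accessions gave a symbol to 26690 of 41174 probes (annotation of build GRCm38.p6, from which no coordinates are given; those printed belong to its promoter sequences). The tested probe of a gene was the one with the highest mean, if well above background in at least 6 of 22 samples.

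Fits used limma 3.58.1 in R 4.3.3 (files read with the data.table package, version 1.17.8), with 3 groups for the lines and with genotype and sex for the 13 spleens, Benjamini-Hochberg adjustment over 13743 genes and a threshold of 0.05. The genes named are all 10 members, the promoter complex, H2-Eb2, up to 3 called genes per direction of each other list and the 5 genes most like Ciita and most like the class II mean. The values of 1 listed gene are not reported here. A few genes outside this rule (Ifngr1, Ifngr2, Ctss, H2-K1, Prdm1, Creb1 and Cd83 between genotypes) were named after their values were seen, and so were all 8 dendritic cell and macrophage markers not well above background in any line. H2-Eb1 has no probe, so the planned pair and mean with it were made without it. Replicates are separate lines and animals as labelled, and array numbers limit the precision. Alternatives were median centring, quantile normalisation, B cell scaling, normexp with an offset of 50 (on median signals, since no mean signal column is in the files), no filter, the mean of probes, slide as a term or alone, the value table, and leaving out samples. Fits were tested on simulated data.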

Additional observations from a re-analysis of the deposited data

How the results depend on the processing

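Of the log2 differences of the 9 genes recomputed under alternatives, 276 of 288 for lines against knockout spleens, 235 of 243 for lines against wild-type spleens and 178 of 198 for knockout against wild-type spleens kept their direction and side of the threshold, or moved by less than the spread. For the lines, the sign changed for Cd74 with median centring, at 0.272 against knockout and 0.196 against wild-type spleens, and for Cd74 within slide 3 (0.196 against knockout spleens). The other sign changes were in values that passed in no setting. For knockout against wild-type spleens, Cd74, H2-Ab1, H2-DMa, H2-DMb1 and H2-Oa were at 0.164, 0.189, 0.126, 0.181 and 0.0581 with B cell scaling, at 0.248, 0.216, 0.135, 0.208 and 0.0760 with normexp and at 0.0485, 0.0802, 0.0439, 0.106 and 0.0269 with slide as a term, and Cd74 was at 0.0133 with quantile normalisation. Leaving out 1 spleen gave -0.224 to 0.0551 for Cd74, -0.137 to 0.0286 for H2-Ab1 and -0.135 to 0.0547 for H2-DMb1. The pair H2-Aa minus H2-Ab1 was at 0.0150 with the mean of probes. The number of genes that fell in the lines against knockout spleens was 7 with median centring, 8 with normexp, 9 with quantile normalisation and 9 with B cell scaling. Median centring moved the median of all genes in that comparison to 0.77, against 0.18, and the median of the 9 class II genes to -0.77, against -1.37. Over all genes, 3974 fell in the lines against knockout spleens, but 2592 with median centring and 2452 with normexp, and 4256 fell against wild-type spleens, but 2735 with median centring. Between the spleen genotypes 298 genes were lower and 227 higher, but 163 and 166 with median centring, 34 and 198 with B cell scaling, 1 and 2 with normexp, 111 and 146 with slide as a term and 178 and 163 in females alone. Leaving out single spleens gave 49 to 429 lower and 74 to 353 higher genes, the fewest without wild-type spleens 5, 6 or 7 and the most without knockout spleen 6, and 0 of the 9 class II genes passed in each of these. The cause of these shifts was not tested. Of the 6 pairs, 5 passed, and 3 to 5 did when 1 sample was left out. Over all 9 lines the planned correlation with Ciita passed for 8 of 8 genes, for 5 without the array titled repeat and for 0 with lines 6, 7 and 8 left out together, where 6 lines remain. The alternatives on line 8, on lines 4 and 5 and on lines 6 to 8 were chosen after seeing the data. No paired analysis was possible because the replicate numbers only name samples of different lines and animals. Slide 1 holds no spleen, so lines 7, 8 and 9 gave no within-slide value. Signal over background did not limit the 9 genes, which were well above background in all samples, but it limits the dendritic cell and macrophage markers in the lines.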
